A study of Mus musculus with 12 samples.

Results

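The genes described here are 10 members of the bone morphogenetic protein (BMP) pathway and of the ID family that it controls: the ligand genes Bmp4 and Bmp7, the secreted BMP antagonist Nog, the type I receptor gene Bmpr1a, the inhibitory SMAD genes Smad6 and Smad7, and the ID factor genes Id1, Id2, Id3 and Id4. They were chosen by gene name, and each matched 1 of the 55401 genes listed for every sample. Adult neural stem/progenitor cells (aNSPCs) from the forebrains of C57BL/6 mice aged 8 to 10 weeks were grown in medium with 20 ng/mL EGF and 20 ng/mL FGF-2, and RNA sequencing was done in 4 groups of 3 samples. The groups were proliferating Ctrl and proliferating NAD+ (1 mM), and differentiation Ctrl and differentiation NAD+ (1 mM), where differentiation means exposure to 1 µM retinoic acid and 5 µM forskolin. The labels describe the same mouse strain, forebrain origin and basic culture medium for all 4 groups, and they name no transgene or deletion. The treatment field of the labels reads untreated for all 12 samples, so the NAD+ groups rest on the sample titles. The study speaks of biological repeats, but the labels do not say whether the 3 samples of a group came from separate mice or cultures, and p-values therefore measure the spread between these samples. How long the cells were exposed before RNA was taken, and whether EGF and FGF-2 were still present during differentiation, are not given in the sources used here.

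BMP ligands bind type I and type II receptor kinases, which phosphorylate SMAD proteins that enter the nucleus and switch on target genes, the ID genes among the most direct of them. ID proteins have a helix-loop-helix but no DNA-binding region, so they hold E proteins in pairs that cannot bind DNA and thereby restrain the helix-loop-helix factors that need an E protein partner. In the adult brain, BMP signalling is known to hold neural stem cells in quiescence and to favour astrocytes over neurons and oligodendrocytes, and Noggin made near the stem cells counters it.

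Levels are given as FPKM, that is fragments divided by transcript length and by the mapped fragments of the library, so that levels of different genes share a scale. The values were rounded to 0.01 and no read counts were used, so the depth of each library is unknown and no counting interval can be given. The sum of FPKM over all genes lay between 308828 and 349649 in 11 samples and was 363330 in proliferating Ctrl replicate 1, which stood apart from the other 2 samples of its group for several genes below. The neural stem cell markers Sox2 and Nes were present in every sample, Sox2 at 205.67 to 251.88 FPKM in proliferating Ctrl and 143.18 to 152.01 in differentiation Ctrl, and Nes at 47.77 to 80.94 and at up to 10.82. Of the 9 neural stem and progenitor markers looked up, 2 were called higher and 4 lower in differentiation Ctrl. Summed astrocyte markers were 842.07 to 958.77 FPKM in proliferating Ctrl and 1317.97 to 1426.1 in differentiation Ctrl, but 824.58 to 938.6 and 720.31 to 845.83 without Gfap, and of the 7 markers 4 were called higher and 2 lower. Summed neuron markers were 24.37 to 35.66 and 35.31 to 40.0, far below the astrocyte sum in both conditions. The 6 microglia markers summed to at most 0.33 FPKM, the 6 endothelial markers to at most 0.9 and the 6 mural and fibroblast markers to at most 1.55 in any sample. In bulk RNA, fewer cells of a type and less RNA per cell cannot be told apart.

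In proliferating aNSPCs, Id2, Id3 and Bmp7 were lower in all 3 NAD+ samples than in any Ctrl sample, but no member passed the adjusted test. The mean of Id2 was 76.3 ± 5.90 FPKM (SD, n = 3) in Ctrl and 51.1 ± 14.1 in NAD+, that of Id3 157 ± 5.30 and 122 ± 11.8, and that of Bmp7 14.5 ± 1.24 and 12.1 ± 0.964. Of the 9 members above the filter of a mean FPKM of 0.1, 0 passed an adjusted p of 0.05 in limma, the linear model fitted here to log2(FPKM + 0.1) of all genes, against 0.145% of the 18597 genes tested. An unadjusted p under 0.05 was found for 3 of the 9, against 15.4% of all genes, and these were Id2, Id3 and Bmp7. The same 3 were the members whose groups did not overlap, against 24.1% of all genes. The rule of the study's own gene calls is an unadjusted p under 0.05 with a ratio of means over 2. With the limma p, 0 met that rule, against 3.01% of all genes. The median log2 fold change was -0.08 over the members tested and 0.07 over all genes. Marker sums were lower in the same NAD+ samples with no overlap, at 2841.72 to 3075.6 FPKM in Ctrl and 1819.14 to 2305.45 in NAD+ for neural stem and progenitor markers, 842.07 to 958.77 and 659.77 to 798.11 for astrocyte markers, and 1265.43 to 1378.53 and 1013.27 to 1045.34 for oligodendrocyte lineage markers. Each sum rests largely on 1 abundant gene: mean Fabp7 was 2107 FPKM in Ctrl and 1317 in NAD+, Aldoc 537 and 439, and Olig1 961 and 723. Mean Nes went the other way, at 68.8 and 82.0, but its groups overlapped, at 47.77 to 80.94 FPKM in Ctrl and 62.48 to 96.96 in NAD+. The lowest Ctrl value was that of replicate 1. The paper reports that Nestin mRNA and protein fell with NAD+ in its own assays. The median log2 fold changes of the 3 lists were -0.05, -0.41 and -0.50. Of these lists 0 markers were called, and the part of the markers in the values of Id2, Id3 and Bmp7 was not tested.

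Under differentiation conditions, no member passed a test of NAD+ against Ctrl, adjusted or not, and the ratios of means ran from 0.712 for Nog, 0.781 for Id1 and 0.796 for Id2 to 1.23 for Bmp7. Id3 had a mean of 30.9 ± 2.47 FPKM (SD, n = 3) in Ctrl and 31.1 ± 3.40 in NAD+, and Id4 one of 28.1 ± 1.502 and 27.7 ± 3.65. In limma, 0 of the 10 members passed the adjusted threshold, against 6.92% of the 19611 genes tested, 0 had an unadjusted p under 0.05, against 24.2%, and 0 met the study's rule, against 4.05%. The groups did not overlap for 1 member, Bmpr1a, against 30.7% of all genes. The median log2 fold change was -0.16 over the members and -0.08 over all genes.

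Whether NAD+ acted differently in the 2 conditions was tested as the difference of the 2 log2 fold changes in a fit of all 12 samples. In limma, 0 of the 10 members passed the adjusted threshold, against 0.467% of the 19498 genes tested. An unadjusted p under 0.05 was found for 2 members, against 15.5% of all genes: Bmp7, with a difference of 0.53 (SE 0.20, limma adjusted p = 0.247), and Id3, with a difference of 0.37 (SE 0.14, limma adjusted p = 0.246). In both genes the proliferating NAD+ samples were below Ctrl, and the log2 fold change in differentiation was 0.27 for Bmp7 and 0.01 for Id3.

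**Figure D1:**
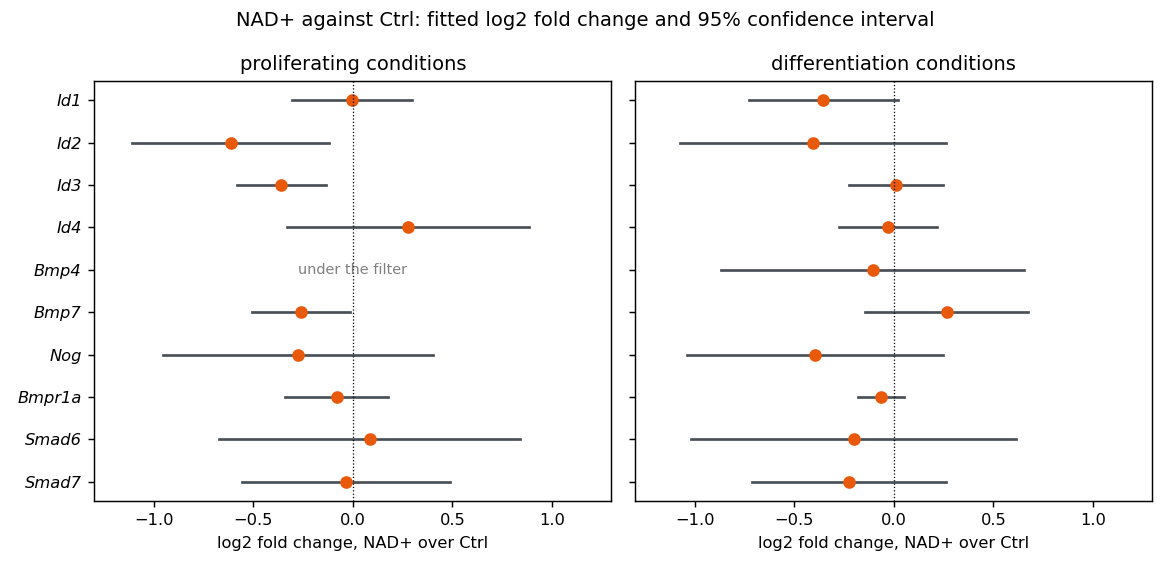
Fitted log2 fold change of NAD+ over Ctrl (x axis) for each member (rows) in proliferating (left) and differentiation (right) conditions, with dots for the estimate and lines for the 95% confidence interval, 3 samples a group. The intervals of Id2, Id3 and Bmp7 lie below 0 in proliferating conditions, every interval spans 0 in differentiation, and Bmp4 was under the filter in proliferating cells.

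Between the conditions, the levels of Bmp7, Id3, Id1 and Id4 differed by more than they did between NAD+ and Ctrl. For Id2 the log2 difference between the conditions was -0.63 in Ctrl beside -0.62 with NAD+ in proliferating cells, and for Nog it was 0.19 beside -0.28 and -0.40 with NAD+. In Ctrl samples, differentiation came with about 9.33-fold less Bmp7, 5.08-fold less Id3 and 2.61-fold less Id1 by the ratio of means, with 4.27-fold more Id4, and with Bmp4 appearing at low FPKM where it had been listed at 0. The condition cannot be told apart from the table here, because proliferating and differentiation samples were deposited as separate tables and no source used here says that they were normalized together. In Ctrl samples, 6 of 10 members passed the adjusted threshold in limma, against 56.7% of all genes, so the share is near the background. Of the 6, 3 were higher in differentiation, against 25% of all genes, and 3 lower, against 31.6%. Bmp4 entered this fit only through the differentiation samples, and of the 9 members that passed the filter in both conditions 5 were called, 2 higher and 3 lower. The groups did not overlap for 8 of 10, and for 7 of these 9, against 61.7% of all genes. In NAD+ samples 5 of 10 were called, against 58.4% of all genes, 2 higher, against 20.8%, and 3 lower, against 37.6%, and the groups did not overlap for 6, against 66.3%. Without Bmp4, 4 of 9 were called in NAD+ samples, 1 higher and 3 lower, and the groups did not overlap for 5 of 9. The median log2 fold change of all genes was -0.06 in Ctrl and -0.20 in NAD+, and with median-ratio scaling it was 0.14 in both, while the share of calls that were higher moved from 44.2% to 57.0% and from 35.6% to 56.5%.

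**Figure D2:**
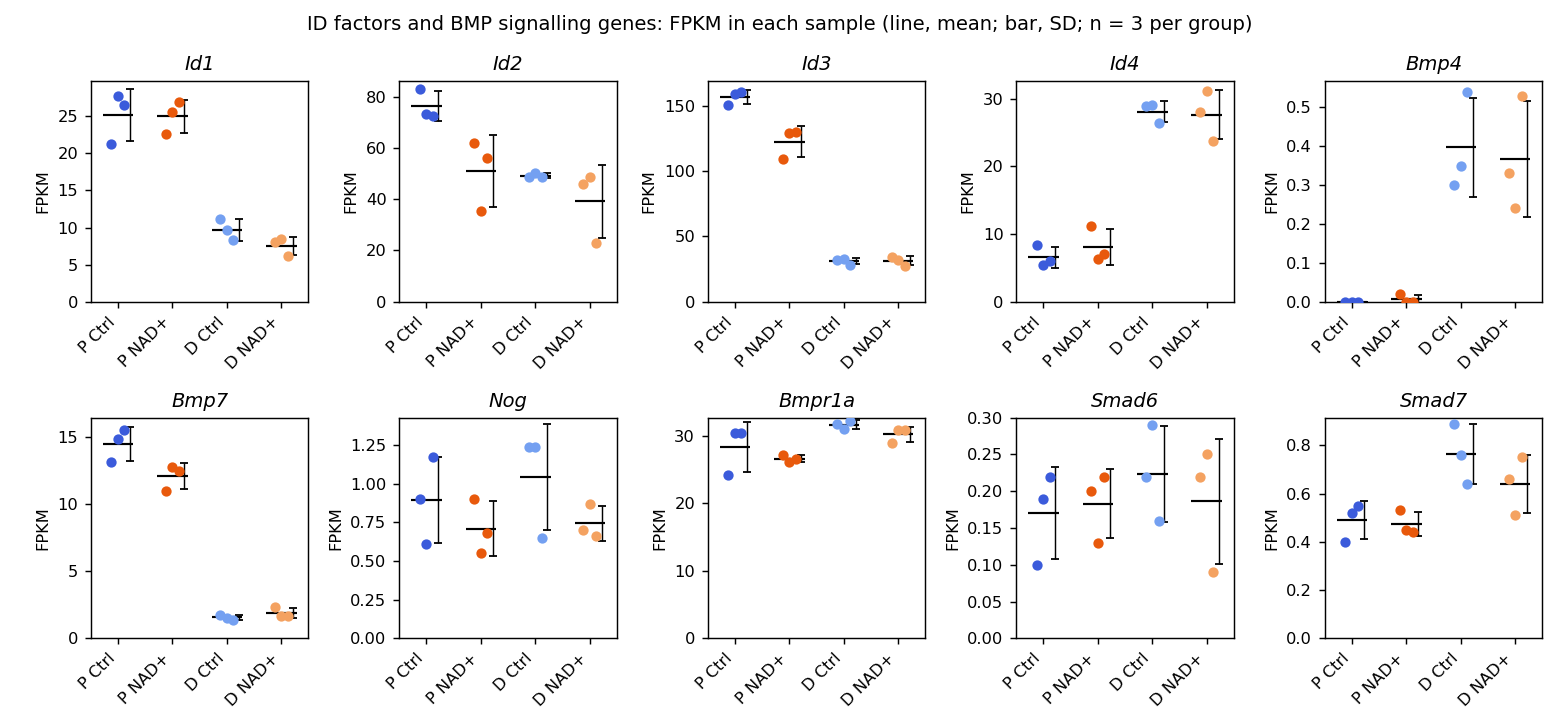
FPKM of each of the 10 members (y axis, linear, starting at 0, own scale in each panel) in the 12 samples, grouped as proliferating Ctrl (P Ctrl), proliferating NAD+ (P NAD+), differentiation Ctrl (D Ctrl) and differentiation NAD+ (D NAD+), with 1 point a sample, a line for the mean and a bar for the SD (n = 3). Id1, Id3 and Bmp7 are lower and Id4 and Bmp4 higher in differentiation, and the Id2 values of 35.20 and 22.79 lie apart from the other samples of the NAD+ groups.

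Bmp7 (chr2:172868012-172940321, minus strand, mm10) encodes a ligand that signals mainly through type I receptors of this class. It stood at 13.12, 14.86 and 15.52 FPKM in proliferating Ctrl and at 10.98, 12.76 and 12.51 in proliferating NAD+. In differentiation it stood at 1.74, 1.55 and 1.37 FPKM in Ctrl and at 2.35, 1.66 and 1.70 in NAD+. The proliferating NAD+ samples all lay below the Ctrl samples, while the differentiation groups overlapped, with NAD+ replicate 1 the highest of the 6. The log2 fold change with NAD+ was -0.26 (SE 0.10, limma adjusted p = 0.304) in proliferating cells and 0.27 (SE 0.17, limma adjusted p = 0.403) in differentiation. Between the conditions Bmp7 fell, with log2 fold changes of -3.15 in Ctrl (SE 0.14, limma adjusted p = 2.66e-08) and -2.62 in NAD+ (SE 0.14, limma adjusted p = 7.4e-08), and, Bmp4 aside, no other member differed by as much.

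Bmp4 (chr14:46383520-46390669, minus strand, mm10) encodes the ligand most often used to drive neural stem cells into quiescence or towards astrocytes. It was listed at 0 in the 3 proliferating Ctrl samples, at 0.02, 0 and 0 FPKM in proliferating NAD+, at 0.30, 0.35 and 0.54 in differentiation Ctrl and at 0.33, 0.24 and 0.53 in differentiation NAD+. Every differentiation sample was above every proliferating one, and the 2 differentiation groups overlapped. No fold is given against values listed at 0, and Bmp4 was called higher in differentiation by limma both in Ctrl (adjusted p = 4.8e-05) and in NAD+ (adjusted p = 8.09e-05). It passed the filter of that fit only through the differentiation samples, so these calls add nothing to the values themselves. With NAD+ in differentiation its log2 fold change was -0.11, with a 95% interval of -0.87 to 0.65. Its highest value, 0.54 FPKM, was below the lowest Bmp7 value in any sample.

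Nog (chr11:89300638-89302332, minus strand, mm10) encodes Noggin, a secreted protein that traps BMP4 and BMP7 outside the cell. It stood at 0.90, 0.61 and 1.17 FPKM in proliferating Ctrl, at 0.90, 0.55 and 0.68 in proliferating NAD+, at 1.24, 1.24 and 0.65 in differentiation Ctrl and at 0.70, 0.87 and 0.66 in differentiation NAD+. All 4 groups overlapped, and no comparison was called. The log2 fold change with NAD+ was -0.28 (95% interval -0.96 to 0.40) in proliferating cells and -0.40 (-1.04 to 0.25) in differentiation, intervals that still hold a 2-fold decrease or close to it.

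Bmpr1a (chr14:34410734-34503341, minus strand, mm10) encodes the main type I BMP receptor of neural stem cells. It stood at 24.15, 30.48 and 30.46 FPKM in proliferating Ctrl and at 27.25, 26.17 and 26.52 in proliferating NAD+. The differentiation values were 31.72, 30.99 and 32.27 FPKM in Ctrl and 28.98, 30.89 and 30.82 in NAD+. It varied little, with NAD+ log2 fold changes of -0.08 (95% interval -0.34 to 0.18) in proliferating cells and -0.07 (-0.18 to 0.05) in differentiation, where the NAD+ samples were all just below the Ctrl samples. Between the conditions it differed by 0.17 in Ctrl (limma adjusted p = 0.117) and 0.18 in NAD+ (limma adjusted p = 0.0892), and it was called higher, at 0.39 and 0.56, once median-ratio scaling was applied.

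Smad6 (chr9:63953076-64022059, minus strand, mm10) and Smad7 encode the inhibitory SMADs, which block the receptor kinases and are themselves induced by BMP or TGF-β signals. Smad6 stood at 0.10, 0.19 and 0.22 FPKM in proliferating Ctrl, at 0.20, 0.13 and 0.22 in proliferating NAD+, at 0.22, 0.29 and 0.16 in differentiation Ctrl and at 0.22, 0.25 and 0.09 in differentiation NAD+. All 4 groups overlapped at these low levels, and no comparison was called. Smad7 stood at 0.40, 0.52 and 0.55 FPKM in proliferating Ctrl and at 0.53, 0.45 and 0.44 in proliferating NAD+. The differentiation values were 0.89, 0.76 and 0.64 FPKM in Ctrl and 0.66, 0.51 and 0.75 in NAD+. Both NAD+ comparisons overlapped, and the differentiation Ctrl samples all lay above the proliferating Ctrl samples, by 0.55 on the log2 scale (SE 0.20, limma adjusted p = 0.0345). That call was lost without the filter (limma adjusted p = 0.0762), with quantile normalization (0.168) and without any 1 of 4 libraries, differentiation Ctrl replicate 1 or 2 or proliferating Ctrl replicate 1 or 2 (0.0516 to 0.121, over these 4), and the difference in NAD+ was 0.36 (limma adjusted p = 0.144).

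The ID genes carried most of the transcript of this set, and the stretches before the starts of Id3, Id2 and Id4 are shown because these 3 genes differed in opposite directions or by unlike amounts between the conditions. The sequences come from RefSeq on GRCm38.p6, the same coordinates as mm10, and run 5′ to 3′ on the gene's strand up to the base before the RefSeq start, which for Id3 and Id2 lies inside the gene as GENCODE places it, so these stretches are not upstream of every annotated transcript. Capitals mark every match, on either strand, to the GC box GGCGCC bound by SMAD1 and SMAD5, the SMAD box GTCT and its palindrome GTCTAGAC, the cAMP response element TGACGTCA and its core TGACG, and the E-box CANNTG. On the other strand GTCT reads AGAC and TGACG reads CGTCA, and GTCT lies within GTCTAGAC as TGACG does within TGACGTCA.
Id3 (chr4:136143572-136143821, plus strand): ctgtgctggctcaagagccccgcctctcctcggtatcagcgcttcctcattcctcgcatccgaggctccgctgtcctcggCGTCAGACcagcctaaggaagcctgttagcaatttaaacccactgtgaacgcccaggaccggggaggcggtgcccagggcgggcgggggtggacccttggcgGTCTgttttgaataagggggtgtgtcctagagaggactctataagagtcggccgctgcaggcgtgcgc
Id2 (chr12:25096093-25096342, minus strand): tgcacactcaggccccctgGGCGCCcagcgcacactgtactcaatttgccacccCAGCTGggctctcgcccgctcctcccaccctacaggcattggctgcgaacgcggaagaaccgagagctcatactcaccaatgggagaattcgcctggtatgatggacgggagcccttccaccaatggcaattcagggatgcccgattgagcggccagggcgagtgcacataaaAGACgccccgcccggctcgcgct
Id4 (chr13:48260866-48261115, plus strand): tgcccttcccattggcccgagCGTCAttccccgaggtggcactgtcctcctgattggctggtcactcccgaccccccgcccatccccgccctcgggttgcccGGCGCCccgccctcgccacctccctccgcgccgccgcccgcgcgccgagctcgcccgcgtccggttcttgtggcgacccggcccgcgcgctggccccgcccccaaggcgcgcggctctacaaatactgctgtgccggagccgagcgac

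Windows of 300 bases, 250 before and 50 after the start, were found for 6 of the 10 members: Id2, Id3, Id4, Bmp4, Bmpr1a and Smad6. GGCGCC was in 3 of the 6 (Id2, Id4 and Bmpr1a) and in 11.9% of the 32851 RefSeq windows of that length. TGACG was in 2 (Id3 and Id4) and in 20.8% of all windows, and TGACGTCA was in none of the 6 and in 1.79% of all. In the Id3 window TGACG, with its first base at -170 from the start, shares 1 base with a GTCT match, and Id4 holds TGACG at -229 and GGCGCC at -148. GTCT was in 5 of the 6 and in 88.0% of all windows, GTCTAGAC in Smad6 alone and in 0.213% of all, and CANNTG in 3 of the 6 and 72.3% of all. These matches describe letters in the window and no binding was measured.

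Id3 (chr4:136143497-136145755, plus strand, mm10) was the most abundant member in proliferating cells and is among the ID genes that respond most quickly to BMP. It stood at 150.73, 158.89 and 160.66 FPKM in proliferating Ctrl and at 108.86, 129.01 and 129.49 in proliferating NAD+. In differentiation it stood at 31.62, 32.90 and 28.13 FPKM in Ctrl and at 33.99, 32.02 and 27.37 in NAD+. The proliferating groups did not overlap, the NAD+ samples being lower, and the differentiation groups covered the same range. The log2 fold change with NAD+ was -0.36 (SE 0.09, 95% interval -0.59 to -0.13, limma adjusted p = 0.172) in proliferating cells, and it stayed between -0.40 and -0.28 when 1 sample was left out. With NAD+ in differentiation it was 0.01 (SE 0.10, 95% interval -0.23 to 0.25). Between the conditions Id3 fell, with log2 fold changes of -2.34 in Ctrl (SE 0.10, limma adjusted p = 1.72e-08) and -1.97 in NAD+ (SE 0.10, limma adjusted p = 4.23e-08).

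Id1 (chr2:152736251-152737410, plus strand, mm10), which marks adult neural stem cells with a high capacity to renew, stood at 21.26, 27.81 and 26.49 FPKM in proliferating Ctrl and at 22.58, 25.56 and 26.89 in proliferating NAD+. Under differentiation conditions Id1 was at 11.12, 9.60 and 8.25 FPKM in Ctrl and at 8.02, 8.47 and 6.15 in NAD+. The proliferating groups covered the same range, with a 95% interval for the log2 fold change of -0.31 to 0.30. In differentiation the groups overlapped through 1 pair, Ctrl replicate 3 and NAD+ replicate 2, and the log2 fold change was -0.35 (SE 0.16, limma adjusted p = 0.228). Id1 fell between the conditions, with log2 fold changes of -1.37 in Ctrl (SE 0.15, limma adjusted p = 1.68e-05) and -1.72 in NAD+ (SE 0.15, limma adjusted p = 2.4e-06).

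Id2 (chr12:25093799-25097140, minus strand, mm10), an ID gene active in neural progenitors and in the oligodendrocyte lineage, stood at 83.09, 73.18 and 72.58 FPKM in proliferating Ctrl and at 61.97, 35.20 and 56.14 in proliferating NAD+. Under differentiation conditions it was at 48.50, 50.31 and 48.71 FPKM in Ctrl and at 46.06, 48.53 and 22.79 in NAD+. The proliferating NAD+ samples all lay below Ctrl, and in each NAD+ group 1 sample, replicate 2 in proliferating and replicate 3 in differentiation cells, was well below the other 2. The log2 fold change with NAD+ was -0.62 (SE 0.21, 95% interval -1.11 to -0.12, limma adjusted p = 0.252) in proliferating cells and lay between -0.77 and -0.37 when 1 sample was left out. In differentiation it was -0.41 (SE 0.28, limma adjusted p = 0.431) and became -0.06 without NAD+ replicate 3. Between the conditions the difference was -0.63 in Ctrl (SE 0.27, limma adjusted p = 0.0665), which passed the threshold without differentiation NAD+ replicate 3 (0.0107) or proliferating NAD+ replicate 2 (0.0423), since all 12 samples share 1 estimate of the spread, and -0.42 in NAD+ (SE 0.27, limma adjusted p = 0.203).

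Id4 (chr13:48261228-48266026, plus strand, mm10), known for holding hippocampal stem cells out of the cell cycle and for its expression in astrocytes, ran the other way from Id1 and Id3. It stood at 8.35, 5.43 and 5.96 FPKM in proliferating Ctrl, at 11.14, 6.23 and 6.97 in proliferating NAD+, at 28.88, 29.09 and 26.39 in differentiation Ctrl and at 28.10, 31.09 and 23.83 in differentiation NAD+. Every differentiation sample was above every proliferating one, and NAD+ and Ctrl overlapped in both conditions. Id4 rose by 2.10 on the log2 scale in Ctrl (SE 0.21, limma adjusted p = 8.7e-06) and by 1.80 in NAD+ (SE 0.21, limma adjusted p = 2.35e-05). The NAD+ log2 fold change was 0.28 (95% interval -0.33 to 0.88) in proliferating cells and -0.03 (-0.28 to 0.22) in differentiation. Genes on the opposite strand overlap Id4, Bmp4 and Bmpr1a, and whether the counting used strand is not stated, so their reads cannot be told apart. These genes were low, at up to 0.79 FPKM for A330033J07Rik and 0.54 for Gm49291 at Id4, 0.18 for Gm15222 at Bmp4 and 0.34 for Gm17110 at Bmpr1a.

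Since the ID proteins act on the same partners, their transcripts were also added and each taken as a share. The sum of Id1 to Id4 was 263.43, 265.31 and 265.69 FPKM in proliferating Ctrl, 204.55, 196.0 and 219.49 in proliferating NAD+, 120.12, 121.9 and 111.48 in differentiation Ctrl and 116.17, 120.11 and 80.14 in differentiation NAD+. The proliferating NAD+ samples all lay below Ctrl (exact two-sided permutation p = 0.10, the smallest that 3 against 3 can give), and the differentiation groups overlapped (exact permutation p = 0.5). In proliferating Ctrl, Id3 made up 59.2% ± 1.73 (SD, n = 3) of the sum, Id2 28.8% ± 2.37, Id1 9.51% ± 1.27 and Id4 2.49% ± 0.600. In differentiation Ctrl, Id2 led with 41.8% ± 1.72, followed by Id3 with 26.2% ± 0.887, Id4 with 23.9% ± 0.185 and Id1 with 8.18% ± 0.965. Id3 outweighed the other ID genes together in proliferating Ctrl, and Id2 was the largest in differentiation Ctrl. The Id3 share overlapped between NAD+ and Ctrl in both conditions, at 59.3% ± 6.31 in proliferating NAD+ and 30.0% ± 3.80 in differentiation NAD+. The Id1 share was higher in every proliferating NAD+ sample than in any Ctrl sample, at 12.1% ± 1.01 against 9.51% ± 1.27 (exact permutation p = 0.10). The Id4 share was likewise higher with NAD+, at 3.93% ± 1.31 against 2.49% ± 0.600 in proliferating cells and 26.6% ± 2.84 against 23.9% ± 0.185 in differentiation (exact permutation p = 0.10 in each). The Id4 groups were separated narrowly, by 3.176% against 3.170% in proliferating cells and 24.19% against 24.04% in differentiation, and the levels of Id1 and Id4 themselves overlapped.

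**Figure D3:**
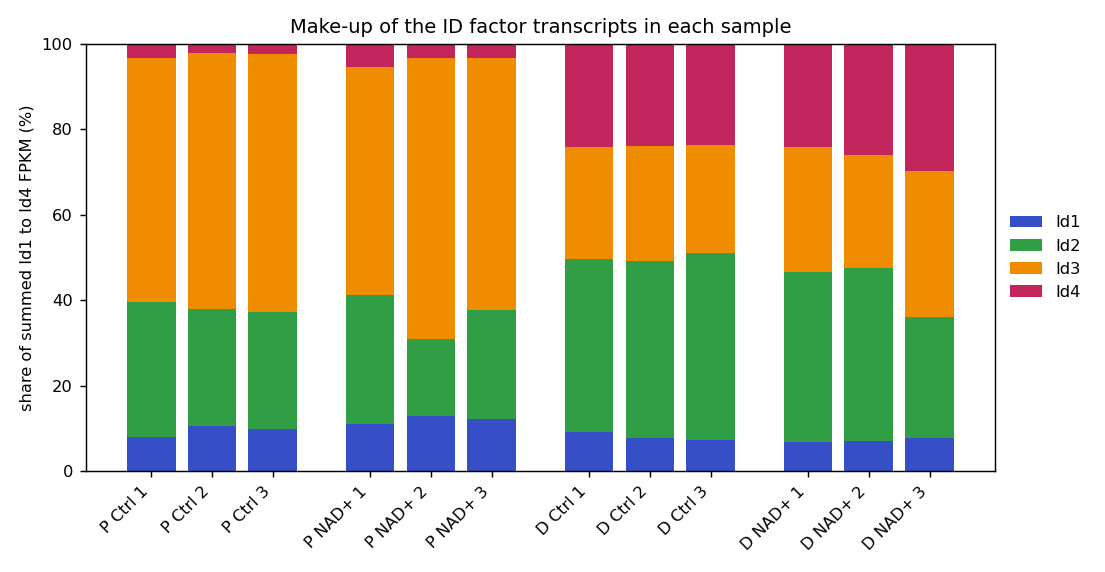
Share of each ID gene in the summed FPKM of Id1 to Id4 (y axis, percent, 0 to 100) in each of the 12 samples (x axis; P, proliferating; D, differentiation; numbers are replicates). Id3 takes 59.2% on average in proliferating Ctrl and 26.2% in differentiation Ctrl, and Id4 passes from 2.49% to 23.9%.

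On the FPKM scale, which allows levels of different genes to be compared, the order of mean levels in proliferating Ctrl was Id3, Id2, Bmpr1a, Id1, Bmp7, Id4, Nog, Smad7, Smad6 and Bmp4, and of the neighbours only Bmpr1a and Id1 overlapped. In proliferating NAD+ the order was the same, and Bmp7 and Id4 overlapped as well. In differentiation Ctrl the order was Id2, Bmpr1a, Id3, Id4, Id1, Bmp7, Nog, Smad7, Bmp4 and Smad6, and Bmpr1a overlapped Id3, Id3 overlapped Id4 and Nog overlapped Smad7. In differentiation NAD+ Id3 stood just above Bmpr1a, and the 4 highest members each overlapped their neighbour.

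The genes whose pattern over the 12 samples was most like that of each ID gene were ranked by the root mean square difference of their centred log2 values among the 12928 genes whose mean over these samples reached 1 FPKM. For Id3 the nearest was Chst7, a sulfotransferase gene, with a difference of 0.0946 and mean levels of 61.8, 46.5, 12.3 and 11.9 FPKM in proliferating Ctrl, proliferating NAD+, differentiation Ctrl and differentiation NAD+, followed by Cdh22 (0.156) and Hes6 (0.158). For Id1 they were Timm8a1 (0.0953), Eif2s1 (0.0967) and Eif4a-ps4 (0.105). For Id4 they were Itpkb (0.164), Hspa2 (0.174) and Ttyh2 (0.187). Id2 had no partner as near, with Prrx1 at 0.219, AW209491 at 0.240 and Gng7 at 0.248. The points share libraries, so these figures are descriptions only.

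Beyond the members, 72 genes of 8 lists of the BMP and ID pathway were looked up. In proliferating cells 0 of the 47 tested passed the adjusted threshold with NAD+ in limma, against 0.145% of all genes, and in differentiation 1 rose and 3 fell of 47, that is 8.51% against 6.92% of all genes, a share near the background. The gene that rose was Twsg1, for a secreted modulator of BMP ligands, at 17.62, 16.99 and 16.69 FPKM in differentiation Ctrl and 21.17, 23.36 and 23.62 in NAD+, with a log2 fold change of 0.41 (SE 0.06, limma adjusted p = 0.0167). In proliferating cells Twsg1 stood at 13.80, 13.03 and 14.79 FPKM in Ctrl and 16.71, 18.78 and 19.09 in NAD+, a log2 fold change of 0.39 that was not called (limma adjusted p = 0.15). Within each condition Twsg1 was higher in every NAD+ sample than in every Ctrl sample. Of all genes, 24.1% in proliferating cells and 30.7% in differentiation had groups that did not overlap. Its call in differentiation was lost without any 1 of 5 of the 6 samples, all but NAD+ replicate 1 (limma adjusted p 0.0269 to 0.0644 over the 6).

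Among the genes that fell with NAD+ in differentiation, Tcf3, an E protein gene, stood at 15.27, 16.46 and 14.40 FPKM in Ctrl and 12.32, 11.78 and 11.01 in NAD+ (log2 fold change -0.39, SE 0.07, limma adjusted p = 0.0313). Hes5, a Notch-induced repressor of proneural genes, stood at 16.43, 15.64 and 16.48 in Ctrl and 9.83, 9.41 and 7.02 in NAD+ (-0.89, SE 0.13, limma adjusted p = 0.015). In both genes the NAD+ samples lay below every Ctrl sample. The call of Tcf3 was lost without any 1 of the 6 samples (limma adjusted p 0.0578 to 0.102), and that of Hes5 without any 1 of the 3 Ctrl samples (0.0544 to 0.0652). Tcf3 was also no longer called with median-ratio scaling (limma adjusted p = 0.0591), and in proliferating cells Hes5, at -0.30 (limma adjusted p = 0.317), was not called. Markers of cell state moved in the same comparison: on the log2 scale Gfap rose by 0.72, Vim by 0.75 and Slc1a3 by 0.36, while Aldh1l1 fell by 0.61. The call of Vim was lost without any 1 of 5 samples, all but Ctrl replicate 1, and that of Slc1a3 without Ctrl replicate 1. Vim and Slc1a3 belong to the neural stem and progenitor list, where of 9 markers 2 were called higher and 2 lower (median log2 fold change -0.16). The summed astrocyte markers were 1317.97 to 1426.1 FPKM in Ctrl and 1567.18 to 1692.32 in NAD+, but 720.31 to 845.83 and 600.15 to 693.71 without Gfap, and of the 7 markers 2 were called higher and 2 lower. The summed oligodendrocyte lineage markers were 452.31 to 463.52 and 341.43 to 375.49, and the part of these markers in the results of the pathway genes was not tested.

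Between the conditions, where 56.7% and 58.4% of all genes were called, 13 pathway genes were higher and 16 lower in differentiation Ctrl of 48 tested, and 13 and 20 in NAD+, that is 60.4% and 68.8% of those tested. Over all genes, 25% were called higher and 31.6% lower in Ctrl, and 20.8% and 37.6% in NAD+. The genes named here were chosen after their values were seen. Of 8 receptors and co-receptors, 5 were higher and 0 lower in Ctrl, among them the type I receptor genes Bmpr1b (log2 fold change 0.86, limma adjusted p = 0.00119) and Acvr1 (0.92, limma adjusted p = 6.12e-05) and the co-receptor gene Rgma (1.08, limma adjusted p = 1.1e-05). Of 10 secreted inhibitors and modulators, 7 were higher and 3 lower, with Nbl1 at 1.67 (limma adjusted p = 0.000283) and Chrdl1 at -2.02 (limma adjusted p = 1.25e-06). Smad4, the SMAD shared by BMP and TGF-β signals, was lower, at -0.51 (limma adjusted p = 0.00206) in Ctrl, but was not called with quantile normalization (-0.22, limma adjusted p = 0.0848), and its -0.43 in NAD+ became -0.05 with median-ratio scaling and -0.017 with quantile normalization. Of the other 3 BMP SMADs 0 were called in Ctrl. In NAD+ samples 2 of the 4 BMP SMADs were called lower. The lowest log2 difference of the 4 was -0.91 in Ctrl and -1.41 in NAD+. Smad5 stood at 9.40, 37.53 and 37.49 FPKM in proliferating Ctrl and 15.85, 15.63 and 7.97 in differentiation Ctrl. With NAD+ it stood at 20.57, 37.36 and 38.74 FPKM in proliferating and 6.93, 15.54 and 14.45 in differentiation samples. In NAD+ samples 4 of the 8 receptors and co-receptors were called higher and 0 lower. The receptor genes named above were higher in the samples where Id1, Id3 and Bmp7 were lower and Id4 and Bmp4 higher, and a link between them was not tested. Of the 3 E protein genes, Tcf3 was lower at -0.71 (limma adjusted p = 3.65e-05) and Tcf12 at -0.77 (limma adjusted p = 0.00298), and with quantile normalization these became -0.35 and -0.43, the call of Tcf12 being lost (limma adjusted p = 0.0639). In a list of 8 other tested helix-loop-helix genes, which holds HES repressors and OLIG factors, 6 were lower, among them Hes5 (-2.27), Olig1 (-2.10), Olig2, Hes1 and Hes6, with 0 higher. Summed oligodendrocyte lineage markers, which include Olig1 and Olig2, were 1265.43 to 1378.53 FPKM in proliferating Ctrl and 452.31 to 463.52 in differentiation Ctrl, and their part in these differences was not tested.

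**Figure D4:**
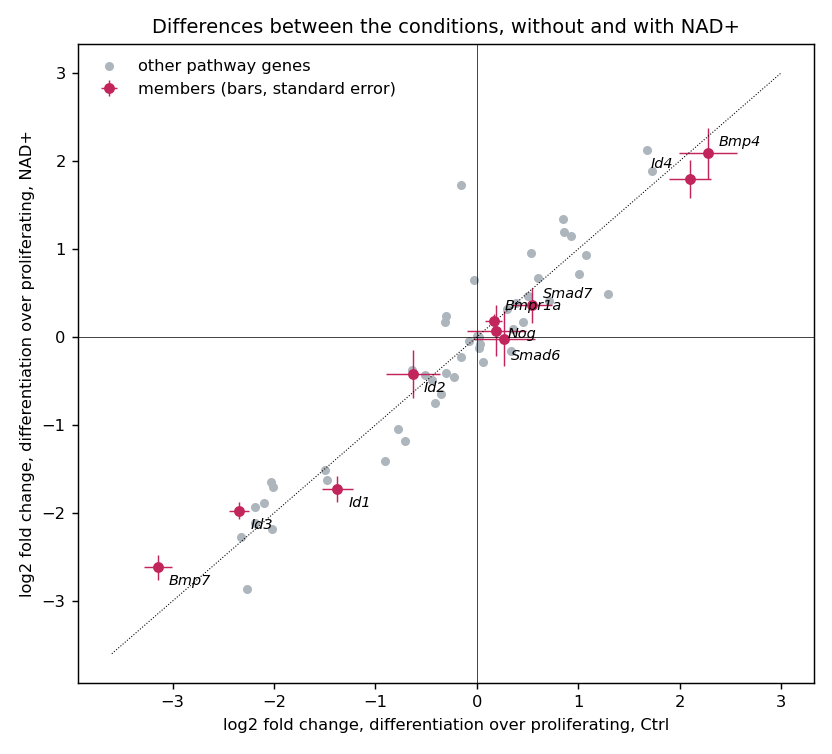
Log2 fold change of differentiation over proliferating samples in Ctrl (x axis) and in NAD+ (y axis), for the 10 members (red, bars are standard errors) and the other pathway genes tested (grey), with a dotted line where both are equal. Bmp7, Id3 and Id1 lie low and Id4 and Bmp4 high on both axes, and the grey point far above the line at the left of centre is Bmp3.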

How the data were processed

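RNA sequencing was done on 12 aNSPC samples. The authors mapped reads to mm10 with Hisat2, kept uniquely mapped reads, counted them with FeatureCounts and deposited FPKM for 55401 genes in 1 table per condition, rounded to 0.01; the program that made the FPKM is not given in the sources used here, nor is strand use. The tables also hold fold changes, p-values and q-values of the authors' own comparisons, which were not used. The depth is unknown.

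Samples were grouped by their titles. Values were taken as log2(FPKM + 0.1), so fold changes of low genes are understated, and genes with a mean FPKM under 0.1 over the samples of a fit were left out. Each NAD+ comparison was fitted with limma (3.58.1, R 4.3.3) on its 6 samples, and the difference of NAD+ effects and the condition comparisons on all 12, which share 1 estimate of the spread. P-values were adjusted over all genes tested by Benjamini-Hochberg, with a threshold of 0.05, and the code was tested on simulated data. Single values were compared by exact two-sided permutation, whose smallest p is 0.10. Positions are those of GENCODE M21, promoter windows those of RefSeq. The alternatives tried were 1 or 0.01 added before log2, no filter or a mean of 1, median-ratio scaling, quantile normalization, a replicate block and each sample left out. The study's calling rule was also tried, with the unadjusted limma p.

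The members, the pathway lists and the marker lists were chosen with earlier results of these data known. Named genes were all members, in each list up to 3 called rises and 3 called falls with NAD+, list genes called in the difference of NAD+ effects, the 3 genes most like each ID gene, and markers where a list moved with a result. Some genes that this rule names are not reported here.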

Additional observations from a re-analysis of the deposited data

Results flagged for a closer look

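One pathway gene met the rule that the NAD+ effect differs between the 2 conditions by a test of the difference itself, here the interaction contrast in limma. Bmp3, for a BMP family member that restrains BMP signals, stood at 1.01, 0.71 and 0.58 FPKM in proliferating Ctrl and at 0.20, 0.14 and 0.17 in proliferating NAD+. Under differentiation it stood at 0.72, 0.71 and 0.56 FPKM in Ctrl and at 0.64, 1.06 and 0.72 in NAD+. The proliferating NAD+ samples lay below every other sample, and the differentiation groups overlapped. The log2 fold change with NAD+ was -1.66 (SE 0.27, limma adjusted p = 0.0861) in proliferating cells and 0.23 (SE 0.22, limma adjusted p = 0.584) in differentiation, and the difference was 1.89 (SE 0.34, limma adjusted p = 0.0449). Over the samples left out in turn, the limma adjusted p of the difference ran from 0.0456 to 0.116, and the call was lost without 11 of the 12, as it was with 1 added before log2 (0.0633) and with no filter (0.0839). None of the 10 members met this rule, and groups of 3 are too small for a search for outlying samples.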

How the results depend on the processing

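The count of members called was 0 for NAD+ in either condition and for the difference of NAD+ effects under every alternative run. Between the conditions it was 6 in Ctrl and ran from 4 to 7, and 5 in NAD+ with a range of 4 to 7, where the 4 arose because only 6 members reach a mean FPKM of 1. Bmpr1a was called higher under median-ratio scaling (0.39 in Ctrl, 0.56 in NAD+) and quantile normalization (0.56 and 0.64), and in NAD+ without proliferating Ctrl replicate 1; Smad7 was called in NAD+ with median-ratio scaling (0.68). Over all genes, calls with NAD+ in proliferating cells numbered 27 and ran from 0 to 75, in differentiation 1357 and 328 to 1589, and for the difference 91 and 12 to 195. Applied to the limma p-values and the filter used here, the study's rule gave 559 and 795 calls with NAD+. These are not the study's own counts, which are lower in both conditions. The rule is not defined for the difference. Median-ratio scaling moved the median of all genes from -0.16 to -0.00 in the difference, and the share of calls that were higher from 32.8% to 51.6% in differentiation, 33.3% to 21.2% in proliferating cells and 47.3% to 77.1% in the difference. The cause of these changes was not tested.

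Some log2 differences that were not called changed sign. With median-ratio scaling these were Id4 (0.044) and Bmpr1a (0.0075) for NAD+ in differentiation, Nog (0.017) for the difference of effects, and Smad6 (0.22) between the conditions in NAD+. With quantile normalization they were Id4 (0.014) and Bmp4 (0.0095) for NAD+ in differentiation, Smad6 (-0.14) between the conditions in Ctrl and Id2 (0.058) in NAD+, and with 1 added before log2 Smad6 in NAD+ (0.0023).

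Leaving out 1 sample at a time gave ranges across 0. For NAD+ in proliferating cells they were -0.12 to 0.072 for Id1, -0.12 to 0.23 for Smad6 and -0.15 to 0.039 for Smad7. For NAD+ in differentiation they were -0.058 to 0.098 for Id3, -0.12 to 0.073 for Id4, -0.35 to 0.097 for Bmp4 and -0.37 to 0.069 for Smad6. For the difference of effects they were -0.038 to 0.56 for Id2, -0.44 to 0.0095 for Bmp4, -0.40 to 0.10 for Nog and -0.041 to 0.13 for Bmpr1a. Between the conditions they were -0.029 to 0.47 for Nog in Ctrl, -0.075 to 0.24 for Nog in NAD+ and -0.19 to 0.25 for Smad6 in NAD+.

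Deviations of same-numbered Ctrl and NAD+ samples were correlated at 0.0215 to 0.111 in proliferating cells and 0.0257 to 0.0432 in differentiation. Samples of unlike number had -0.112 to 0.073 and -0.0397 to -0.0025. The same-numbered values were small, at 0.062 and 0.037 on average, and the averages for unlike numbers were -0.030 and -0.018. Deviations were taken from each group's own mean, which largely ties these averages to opposite signs. Their contrast is therefore no separate evidence of pairing. Weak pairing by number thus cannot be set aside, and the main fits left it out while the replicate block took it in. With the replicate block 0 members were called for NAD+ in either condition and 5 between the conditions in Ctrl and in NAD+, the call of Smad7 in Ctrl being lost (limma adjusted p = 0.0763), as were those of Twsg1 (0.0561), Tcf3 (0.0503) and Vim (0.0589) with NAD+ in differentiation and Bmp3 in the difference (0.0842). Over all genes the block gave 0 calls in proliferating cells (3094 at an unadjusted p under 0.05), 758 in differentiation and 47 for the difference. The depth is unknown, and Smad6, at up to 0.29 FPKM, had the widest interval of the members tested in both NAD+ comparisons.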

Other observations

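In both NAD+ groups 1 sample had an Id2 level well below the other 2. The proliferating NAD+ replicate 2 value of 35.20 FPKM lay beside 61.97 and 56.14, and the differentiation NAD+ replicate 3 value of 22.79 beside 46.06 and 48.53. In differentiation NAD+ replicate 3, Id1 (6.15), Id3 (27.37), Id4 (23.83), Nog (0.66) and Smad6 (0.09) were also the lowest of the 3 samples, while Bmp4 (0.53), Bmp7 (1.70), Bmpr1a (30.82) and Smad7 (0.75) were not. Dixon's rule was not applied to groups of 3.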
